A study of Mus musculus with 6 samples.

Results

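The genes that write, copy, erase and protect DNA methylation were compared between mouse epiblast stem cells lacking Mixl1 and cells in which Mixl1 was induced. They are 10 genes chosen by symbol from the 55471 gene identifiers that were counted: the methyltransferase genes Dnmt1, Dnmt3a and Dnmt3b, the cofactor gene Dnmt3l, the dioxygenase genes Tet1, Tet2 and Tet3, the maintenance factor Uhrf1, and the imprint maintenance genes Zfp57 and Trim28. Epiblast stem cells are a primed pluripotent state close to that of the gastrulating mouse epiblast, and Mixl1 is a homeobox gene active in the primitive streak, where mesoderm and endoderm arise. Poly(A) RNA was sequenced from embryoid bodies, aggregates of these cells, on day 2 of differentiation in serum, with 3 libraries labelled Mixl1 KO and 3 labelled Mixl1 induced. The induced group was a Mixl1-inducible line given doxycycline at 1 µg/mL for the last 24 h. Both groups had been cultured on irradiated mouse feeder fibroblasts in medium with 10 ng/mL bFGF plus 20 ng/mL activin A, and both were aggregated for 24 h before transfer to plates. The labels do not say whether the knockout cells received doxycycline, whether both lines share a parent, how many clones were used, or which promoter drives the Mixl1 transgene, so line, Mixl1 and drug cannot be told apart. The treated samples are described as triplicates without naming separate cultures, and the p-values then measure only the spread between these libraries, which may be technical.

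DNA methylation in mammals sits mostly on the cytosine of CpG pairs. DNMT3A and DNMT3B place it on unmethylated DNA, helped by DNMT3L, which has no catalytic activity of its own. UHRF1 binds the hemimethylated CpG that replication leaves and brings in DNMT1, which copies the mark to the new strand. TET enzymes oxidise methylcytosine, which starts its loss. At imprinted loci, where only the copy from one parent is methylated, the zinc-finger protein ZFP57 binds the methylated copy and recruits TRIM28 (also KAP1), which holds a repressive complex there and keeps the mark through the demethylation of the early embryo. The epiblast is the stage at which de novo methylation is at its height, and DNMT3B is a usual marker of it.

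RefSeq promoters (GRCm38.p6) were available for all 10 genes, with 19 windows of 250 bases immediately before an annotated start. The first windows of the 4 genes with the largest differences below are printed to show how unlike they are in CpG content. A further start of Dnmt3a, start 3 in RefSeq, is added. Both printed Dnmt3a windows and the Tet3 window lie inside the annotated gene, while the printed Dnmt3b and Zfp57 windows lie before it. Dnmt3a is known to make a shorter isoform from an internal promoter, and whether start 3 is that promoter was not established here. Each is written 5′ to 3′ on the strand of the gene, and capitals mark CpG pairs. They lie at chr12:3806730-3806979 and chr12:3891494-3891743 (Dnmt3a, plus strand), chr2:153649199-153649448 (Dnmt3b, plus strand), chr6:83441679-83441928 (Tet3, minus strand) and chr17:37000913-37001162 (Zfp57, plus strand).
Dnmt3a start 1: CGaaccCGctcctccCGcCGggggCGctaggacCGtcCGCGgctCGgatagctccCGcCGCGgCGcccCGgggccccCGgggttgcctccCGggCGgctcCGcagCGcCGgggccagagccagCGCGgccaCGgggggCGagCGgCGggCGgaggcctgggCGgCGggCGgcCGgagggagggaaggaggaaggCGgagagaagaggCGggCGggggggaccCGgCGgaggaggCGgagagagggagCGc
Dnmt3a start 3: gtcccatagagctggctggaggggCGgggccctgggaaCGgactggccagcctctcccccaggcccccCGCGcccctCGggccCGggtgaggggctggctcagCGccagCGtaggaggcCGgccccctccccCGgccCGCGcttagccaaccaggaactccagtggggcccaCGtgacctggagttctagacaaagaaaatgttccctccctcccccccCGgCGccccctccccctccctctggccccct
Dnmt3b start 1: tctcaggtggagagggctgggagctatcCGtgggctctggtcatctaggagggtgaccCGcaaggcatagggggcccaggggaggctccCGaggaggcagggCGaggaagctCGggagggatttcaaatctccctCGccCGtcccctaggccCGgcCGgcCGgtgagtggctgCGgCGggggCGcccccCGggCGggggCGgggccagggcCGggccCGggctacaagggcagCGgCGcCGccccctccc
Tet3 start 1: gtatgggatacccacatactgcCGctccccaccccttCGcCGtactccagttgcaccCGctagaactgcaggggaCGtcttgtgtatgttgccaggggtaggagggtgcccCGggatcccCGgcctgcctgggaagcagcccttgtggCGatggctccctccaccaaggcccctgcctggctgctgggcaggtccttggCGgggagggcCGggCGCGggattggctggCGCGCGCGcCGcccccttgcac
Zfp57 start 1: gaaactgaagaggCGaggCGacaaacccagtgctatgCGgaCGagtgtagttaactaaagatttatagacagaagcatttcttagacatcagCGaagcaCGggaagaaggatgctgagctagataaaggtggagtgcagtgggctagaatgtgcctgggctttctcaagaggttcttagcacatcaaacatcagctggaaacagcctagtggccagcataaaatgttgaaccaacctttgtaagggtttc
The first Dnmt3a window holds 38 CpG pairs, more than 98.1% of the 32851 windows in the RefSeq table, whose median is 6. The Dnmt3a start 3 window holds 15, the Dnmt3b window 21 and the Tet3 window 17. The Zfp57 window holds 6, equal to the median, and the other Zfp57 windows hold 7 and 3. The most CpG-rich of the 19 was that of Tet2, with 51.

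Motifs were searched on both strands of the 19 windows. The homeodomain core as a palindrome, TAATTA, was in 0 of them and in 4.84% of all windows. The pair TAAT and ATTA with 3 bases between, a longer palindrome, was in 0 and in 0.463%. The core of the methylated hexamer that ZFP57 is known to bind, TGCCGC, was in 3 windows (Dnmt3a start 2, which is not printed, Tet3 and Trim28) and in 8.68% of all windows. The CCAAT box was in 6 of the 19 windows and in 33.9% of all, and the GC box GGGCGG was in 12 and in 32.7%. These matches describe letters in a window and were not tested against the expression values.

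The Mixl1 reads followed the labels. Mixl1 stood at 39.9, 36.8 and 42.7 CPM in the knockout libraries and at 427.2, 441.1 and 429.2 CPM in the induced libraries (CPM are reads per 1000000 on scaled library sizes), a log2 fold change of 3.44 ± 0.055 (SE). Mixl1 reads were thus still counted in the knockout libraries, and the labels do not say which part of the gene was removed. Gene reads numbered 17490426 to 21026423 per library, and the chi-square per degree of freedom between 2 libraries was 2.25 to 5.18 within a group and 79.6 to 91.3 across groups. Across the whole table, 9450 of the 15091 tested genes (62.6%) were below an adjusted p of 0.05 in edgeR's quasi-likelihood test with Benjamini-Hochberg adjustment. Of these 4684 were higher in induced cells (31.0%) and 4766 were lower (31.6%), and for 67.1% of tested genes the 3 libraries of one group did not overlap those of the other. Log2 fold changes are induced over knockout throughout.

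Zfp57 and Tet3 rose in induced cells, by 2.55-fold and 1.65-fold, while Dnmt3a fell by 31.3% and Dnmt3b fell by 30.5%. Dnmt1 rose by a small amount, and Uhrf1, Tet1, Tet2 and Trim28 did not pass the test. Dnmt3l was nearly silent in every library and was not tested. That makes 5 of 9 tested members past the threshold (55.6%, against 62.6% of all tested genes), 3 higher and 2 lower, a share near the background. Their median absolute log2 fold change was 0.23, against 0.32 over all tested genes. Only Zfp57 reached a 2-fold difference, a size that 16.2% of tested genes reached.

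**Figure D1:**
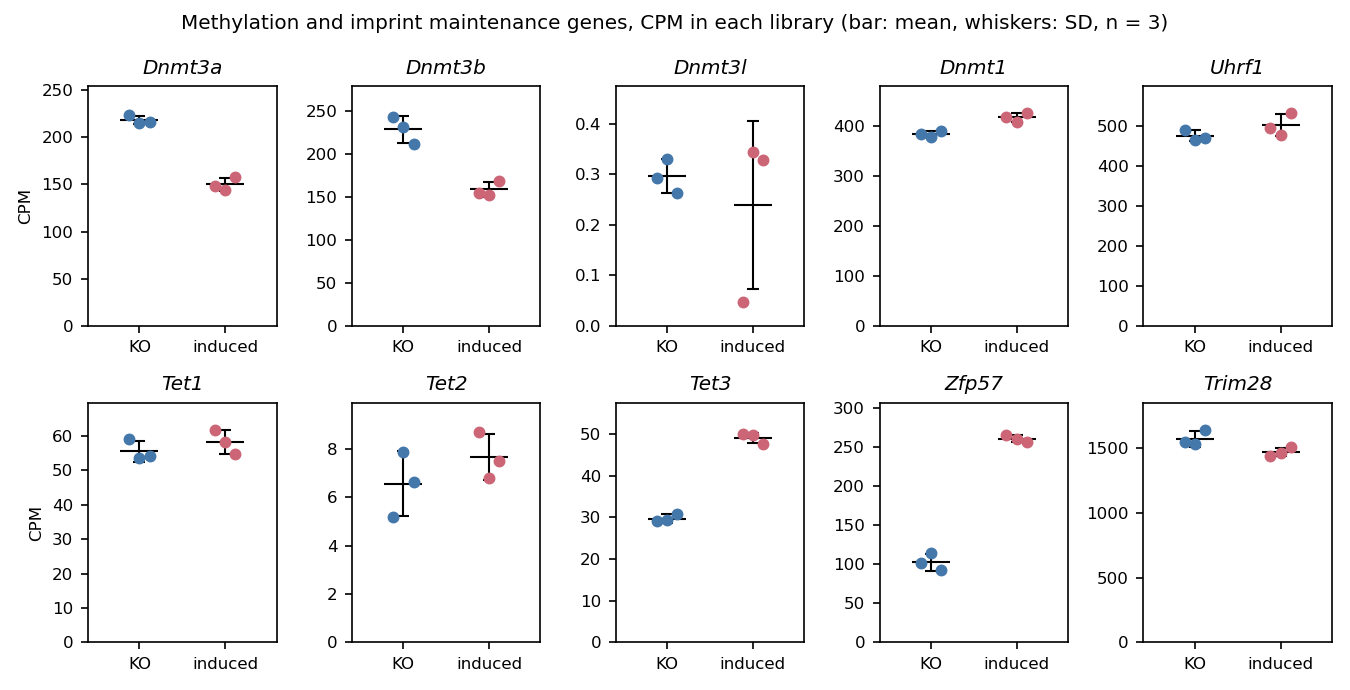
Level of each of the 10 genes in CPM (vertical axes from 0, scaled per gene) in the 3 knockout and 3 induced libraries; points are libraries, bars are means and whiskers are SD. Dnmt3a, Dnmt3b, Tet3 and Zfp57 separate clearly, Dnmt1 and Trim28 narrowly, and the other 4 genes overlap.

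Among the writers of new methylation, both catalytic genes fell to a like extent. Dnmt3a (chr12:3806007-3914443, plus strand) stood at 223.0, 215.6 and 215.8 CPM in the knockout libraries and at 148.0, 144.2 and 157.6 CPM in the induced libraries. Every induced library was below every knockout library, and the spread within a group was small beside the gap. The log2 fold change was -0.54 ± 0.046 (SE), with an adjusted p of 1.11e-09 (edgeR). Reads of this gene are the sum over its isoforms, so the long and the short DNMT3A cannot be told apart. Its exons share 133 bases with the antisense gene Dnmt3aos, which the stranded counts keep apart.

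Dnmt3b (chr2:153649450-153687730, plus strand) stood at 242.7, 231.1 and 211.2 CPM in knockout cells and at 154.9, 152.5 and 168.7 CPM in induced cells. The groups again did not overlap, with the lowest knockout and the highest induced library both being replicate 3. Its log2 fold change was -0.53 ± 0.054 (SE), with an adjusted p of 2.75e-08 (edgeR). The 95% intervals of the Dnmt3a and Dnmt3b changes overlap almost wholly.

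Dnmt3l (chr10:78041947-78063622, plus strand), the helper of the de novo enzymes in germ cells, had 6, 6 and 5 reads in the knockout libraries and 1, 6 and 6 in the induced libraries. At 17 against 13 reads no difference was detectable at this depth. Without a filter on low counts its log2 fold change was -0.34 ± 0.61 (SE), with an adjusted p of 0.697 (edgeR).

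Per kilobase of exon, the measure used for comparing genes with each other, the balance among the 3 genes stayed almost where it was. Dnmt3b made up 77.2% ± 1.01 (SD, n = 3) of their summed level in knockout cells and 77.4% ± 0.137 in induced cells. For Dnmt3a the shares were 22.7% ± 1.01 and 22.4% ± 0.223. The difference in the Dnmt3a share was -0.23 percentage points, within the spread of the knockout libraries (2-sided exact permutation test, p = 1.0, where 3 libraries against 3 cannot go below 0.1). Dnmt3l held 0.171% and 0.198%.

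Dnmt1 and Uhrf1, the pair that copies methylation at replication, stood at high levels in both groups. Dnmt1 (chr9:20907209-20959888, minus strand) was at 383.1, 377.3 and 390.1 CPM in knockout cells and at 417.7, 406.8 and 424.5 CPM in induced cells. The groups did not overlap, but the gap between their nearest libraries was only about the range within a group. Its log2 fold change was 0.12 ± 0.043 (SE), with a 95% interval of 0.03 to 0.21 and an adjusted p of 0.0196 (edgeR). The call was lost in 3 of the 6 fits that left out 1 library and kept in the other 3: leaving out knockout replicate 1 gave an adjusted p of 0.082, leaving out knockout replicate 2 gave 0.069 and leaving out induced replicate 1 gave 0.057 (edgeR).

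Uhrf1 (chr17:56303321-56323486, plus strand) stood at 490.5, 464.3 and 469.6 CPM in knockout cells and at 494.8, 477.7 and 531.6 CPM in induced cells, and the groups overlapped. The log2 fold change was 0.08 with a 95% interval of -0.02 to 0.18 (edgeR adjusted p 0.154). The ratio of Dnmt1 to Uhrf1 per kilobase was 0.467 ± 0.0145 (SD, n = 3) in knockout and 0.480 ± 0.0166 in induced cells (2-sided exact permutation test, p = 0.4). Over the 7 shares and ratios compared in this way, the smallest Benjamini-Hochberg adjusted p was 0.35.

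Of the 3 dioxygenase genes, Tet3 alone passed the test. Tet3 (chr6:83362373-83459084, minus strand) stood at 29.0, 29.3 and 30.9 CPM in knockout cells and at 49.9, 49.7 and 47.6 CPM in induced cells. Both groups were tight and far apart, with a log2 fold change of 0.72 ± 0.061 (SE) and an adjusted p of 9.45e-10 (edgeR).

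Tet1 (chr10:62804570-62908996, minus strand), the main TET gene of pluripotent cells, stood at 59.0, 53.6 and 54.1 CPM in knockout cells and at 61.8, 58.2 and 54.7 CPM in induced cells. These libraries overlap, and the 95% interval of the log2 fold change ran from -0.06 to 0.19 (edgeR adjusted p 0.339). Tet2 (chr3:133463679-133545139, minus strand) was the lowest of the 3, at 5.17, 7.88 and 6.63 CPM in knockout cells and at 8.68, 6.80 and 7.48 CPM in induced cells. Its interval was wide, -0.07 to 0.54 (edgeR adjusted p 0.174), and a 1.3-fold rise or no change are both inside it. Without knockout replicate 2 its log2 fold change was 0.38 with an adjusted p of 0.0371 (edgeR), so that library decides the call.

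Tet3 therefore took a larger share of the TET total. Per kilobase of exon, Tet3 made up 29.6%, 30.8% and 32.2% of the summed level in the knockout libraries and 39.8%, 41.7% and 41.7% in the induced libraries. Tet1 made up 65.1%, 61.0% and 60.9% in knockout cells and 53.3%, 52.7% and 51.8% in induced cells. For both genes the groups did not overlap, and the differences of 10.2 and -9.75 percentage points each had an exact permutation p of 0.1 (2-sided), the smallest possible here. Tet2 held 6.76% ± 1.49 (SD, n = 3) and 6.33% ± 0.621, which overlap (exact permutation p = 0.8). Which of Tet1 and Tet3 led in induced cells depended on the length used: with the longest transcript in place of all exons, Tet1 was at 43.2% and Tet3 at 48.0% there, against 52.9% and 37.3% in knockout cells.

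**Figure D2:**
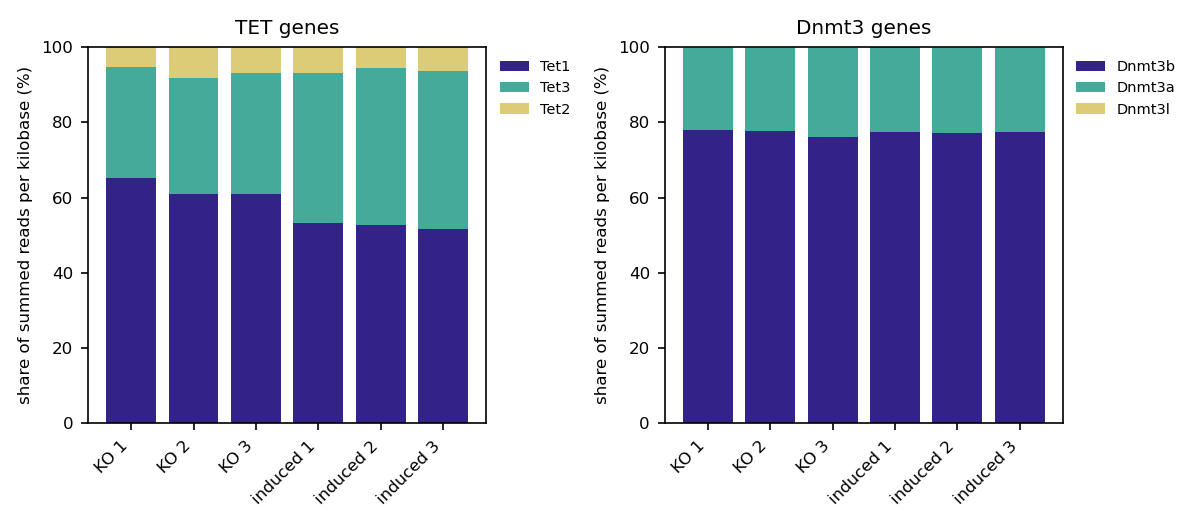
Share (%) of each gene in the summed reads per kilobase of the TET genes (left) and of Dnmt3a, Dnmt3b and Dnmt3l (right), one bar per library. Tet3 takes 29.6% to 32.2% in knockout and 39.8% to 41.7% in induced libraries, while the Dnmt3b share lies between 76.0% and 77.9% in all 6.

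Zfp57 showed the largest difference of the 10 genes, and its partner Trim28 did not pass the test. Zfp57 (chr17:37001163-37010635, plus strand) stood at 101.2, 114.4 and 92.2 CPM in the knockout libraries and at 265.7, 261.3 and 256.4 CPM in the induced libraries. The lowest induced library was more than double the highest knockout library. Its log2 fold change was 1.35 ± 0.060 (SE), with a 95% interval of 1.22 to 1.47 and an adjusted p of 2.71e-13 (edgeR), a larger absolute change than that of 88.8% of tested genes.

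Trim28 (chr7:12999114-13031035, plus strand), a corepressor that serves many KRAB zinc-finger proteins besides ZFP57, stood at 1545, 1534 and 1645 CPM in knockout cells and at 1444, 1462 and 1510 CPM in induced cells. All induced libraries were below all knockout libraries. The groups did not overlap, in either direction, for 67.1% of tested genes. The log2 fold change was -0.10, with a 95% interval of -0.19 to -0.00 and an adjusted p of 0.0664 (edgeR). The call lay at the edge of the threshold: Trim28 passed in 5 of the alternative analyses, with adjusted p from 0.0247 to 0.048.

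With all annotated exons as length, the order of the genes by level changed only in the place of Zfp57; with the longest transcript, Tet1 and Tet3 also changed places, as given above. Per kilobase of exon, knockout cells ranked Trim28 (378.7 CPM per kilobase), Uhrf1 (111.5), Dnmt1 (52.0), Dnmt3b (44.7), Zfp57 (27.1), Dnmt3a (13.1), Tet1 (3.60), Tet3 (1.78), Tet2 (0.389) and Dnmt3l (0.0989). In induced cells Zfp57 (69.0) stood between Uhrf1 (117.7) and Dnmt1 (56.4), and the rest kept their order, from Trim28 (354.0) through Dnmt3b (31.1), Dnmt3a (9.01), Tet1 (3.77), Tet3 (2.94) and Tet2 (0.454) to Dnmt3l (0.0802). In neither group did the libraries of adjacent genes in this order overlap. Trim28 was above 99.5% of tested genes in knockout cells, and Tet2 above 10.7%.

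The 4 genes that changed most each lay outside the range of their 6 nearest tested protein-coding genes. Zfp57 lies on chromosome 17, where the median log2 fold change of 753 tested genes was -0.13, and it exceeded that median by 1.48. Its 6 neighbours lay between -0.54 and 0.42, with 1 higher and 1 lower past the threshold. The neighbours of Tet3 lay between -2.04 and 0.01, with 0 higher and 5 lower. Dnmt3a went down among neighbours of which 4 rose and 0 fell, from -0.17 to 2.17. For Dnmt3b the neighbours lay between -0.34 and 0.08, with 3 lower, and its own change of -0.53 was below all 6. Uhrf1, also on chromosome 17, was 0.21 above the median of that chromosome, with neighbours between -0.48 and 0.17. One neighbour of Tet2, Cxxc4 at 691.3 kb, fell by 0.83 on the log2 scale (adjusted p 2.95e-06, edgeR); Cxxc4 encodes the CXXC zinc finger that is known to have split from an ancestral Tet2 gene and to lower TET2 protein.

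**Figure D3:**
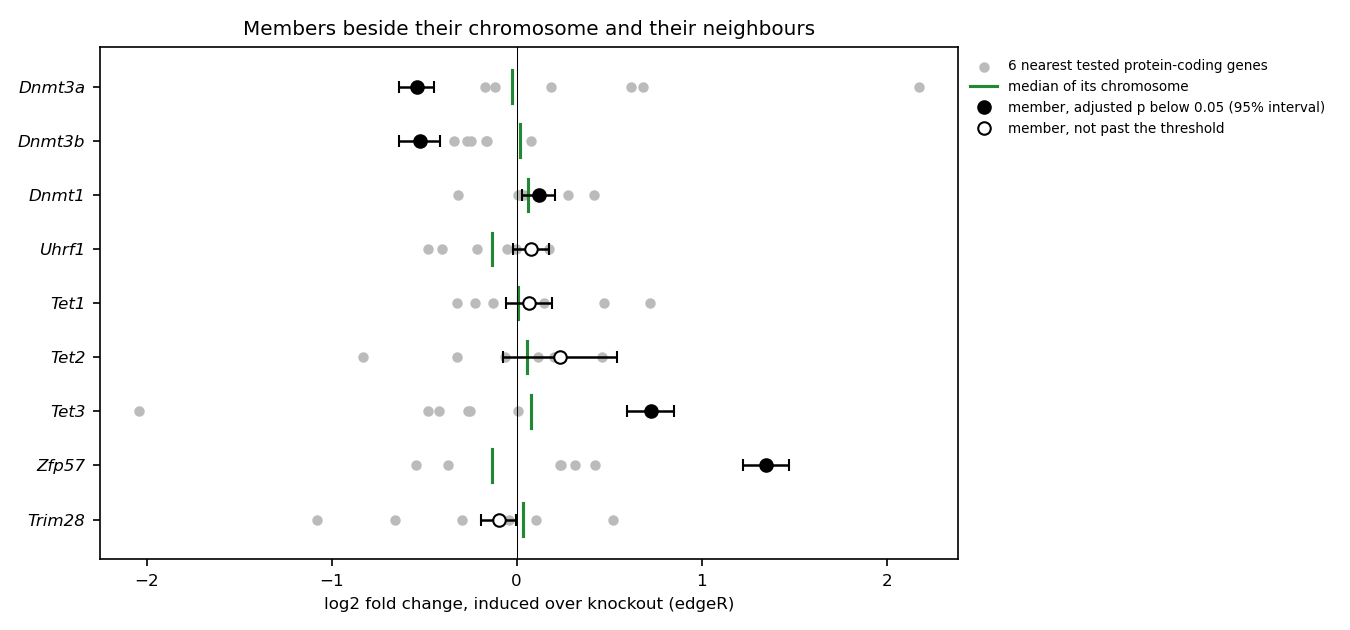
Log2 fold change (induced over knockout) of each tested gene with its 95% interval, filled where the adjusted p is below 0.05, beside the median of its chromosome (green) and its 6 nearest tested protein-coding genes (grey). Zfp57 and Tet3 lie above all their neighbours, and Dnmt3a and Dnmt3b lie below all of theirs.

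Other genes of the pathway were taken from lists of known partners, and each list is given beside the background of 62.6% called. Of 10 partners of maintenance methylation, 3 rose and 3 fell, with a median log2 fold change of 0.01. Uhrf2, the relative of Uhrf1, stood at 273.9 ± 11.8 CPM (SD, n = 3) in knockout and 147.2 ± 4.11 CPM in induced cells (log2 fold change -0.90). Lig1, the replicative ligase whose methylated tail UHRF1 binds, went from 518.2 ± 38.8 to 315.2 ± 13.0 CPM, a change of -0.72. Cdca7l fell by 0.35 on the log2 scale, and Usp7, a deubiquitinase that stabilises DNMT1, rose by 0.37. Uhrf2 and Lig1 thus fell while Uhrf1 and Dnmt1 lay within 0.12 of no change. The levels of S phase genes follow the share of replicating cells, as those of Dnmt1 and Uhrf1 are known to do. Of 20 S phase genes, 10 rose and 3 fell (65.0% called), with a median of 0.15. Examples are Gins2 at 0.58, Rrm1 at 0.45, Cdt1 at 0.36 and Slbp at 0.36, with Gins1 lower at -0.32. How far the small rise of Dnmt1 goes with these was not tested.

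Of 14 regulators of de novo methylation, 8 rose and 2 fell (71.4% called) while Dnmt3a and Dnmt3b fell, with a median log2 fold change of 0.19. E2f6, which directs methylation to germline genes, rose by 0.47, Kdm2b, a CXXC protein of CpG islands, by 0.32, Ehmt2, the H3K9 methyltransferase G9a, by 0.29, and Setd2, whose H3K36 mark DNMT3B reads, by 0.28. Kdm1a, the demethylase LSD1, fell by 0.20. One-carbon metabolism makes the methyl donor S-adenosylmethionine (SAM). Of its 14 tested genes, 6 rose and 4 fell (71.4% called), with a median of 0.03. Shmt2, a mitochondrial serine hydroxymethyltransferase, rose by 1.05 on the log2 scale, from 159.3 ± 10.5 to 330.1 ± 11.2 CPM (SD, n = 3), and Mat2a, which makes SAM, went from 282.1 ± 3.75 to 404.9 ± 19.6 CPM, a change of 0.52. Amd1 rose by 0.32, and it has near-identical copies whose shared reads are lost as multimapped. Mtrr fell by 0.31.

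Around the TET genes, 4 of 10 regulators and genes of 2-oxoglutarate supply rose and 3 fell (70.0% called), with a median of -0.03. Among the rises, Idh1, cytosolic isocitrate dehydrogenase, went from 61.9 ± 2.53 to 92.7 ± 5.92 CPM (0.58), and Idh3a, a subunit of the mitochondrial enzyme, rose by 0.32. Genes of base excision and the GADD45 family act after TET oxidation. Of the 13 tested, 2 rose and 5 fell (53.8% called), with a median of -0.06. Gadd45g had the largest change of the list, -1.30 on the log2 scale, at 11.3 ± 1.06 against 4.63 ± 0.603 CPM (SD, n = 3). Gadd45a fell by 0.53 and Parp1 by 0.31, while the glycosylase gene Neil3 rose by 0.60 and Lig3 by 0.28.

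Of 15 partners of TRIM28 in silencing, 3 rose and 7 fell (66.7% called), with a median of -0.16. Atf7ip2, a relative of the SETDB1 cofactor ATF7IP, had the largest change of the list, -1.89 on the log2 scale, at 29.4 ± 2.24 CPM (SD, n = 3) in knockout against 7.90 ± 0.957 CPM in induced cells. Pphln1, a subunit of the HUSH silencing complex, fell by 0.90 and Atrx, a chromatin remodeller, by 0.47. Daxx, the H3.3 chaperone that acts with ATRX, went the other way, from 60.7 ± 1.06 to 99.1 ± 2.43 CPM, a change of 0.71. Zfp445, the other zinc-finger gene known to keep imprints and named for that role, had a log2 fold change of -0.10 and did not pass the test. Of 13 other imprint factors listed, 6 were tested, and 0 rose and 2 fell (33.3% called). Smchd1, which silences some imprinted clusters and the inactive X, fell by 0.37. Arid4b was lower by 0.14 with an adjusted p of 0.0405 (edgeR), a call lost in 5 alternatives. Of the oocyte factors in that list, Nlrp2, Nlrp5 and Padi6 had 0 reads in all 6 libraries, Khdc3 had 2 reads, both in knockout libraries, and Nlrp7 had no entry under that symbol.

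Of 10 readers of methylated CpG, 2 rose and 5 fell (70.0% called), with a median of -0.17. Mbd2, a subunit of a NuRD complex, fell by 0.64, Zbtb4 by 0.59 and Zbtb33, which encodes KAISO, by 0.52, while Zbtb38 rose by 0.28. Genes whose promoters are kept silent by methylation in somatic cells were mostly at or near 0. Of 19 such germline genes, 9 had 0 reads in every library, among them Sycp1, Mael and Asz1, and 3 passed the filter (66.7% called). Tdrkh fell by 0.47, from 20.8 ± 2.07 to 15.0 ± 0.919 CPM, and Tex19.1 rose from 0.493 ± 0.298 to 1.18 ± 0.111 CPM (SD, n = 3). Tex19.1 has a close paralogue, so its reads are uncertain. The summed level of the list, most of it Tdrkh, was 19.8 to 24.4 CPM in knockout and 16.1 to 17.6 CPM in induced libraries.

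**Figure D4:**
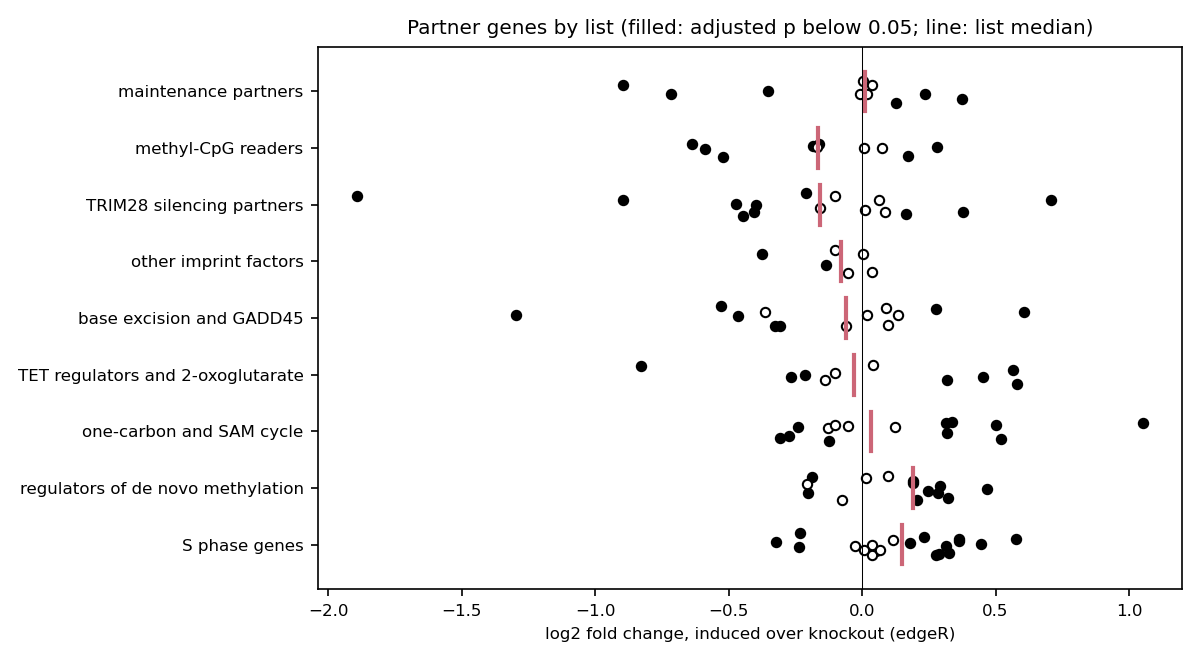
Log2 fold change (induced over knockout) of each tested partner gene by list; filled points passed an adjusted p of 0.05, and lines are list medians. Each list spans 0, and the medians lie between -0.17 and 0.19.

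Markers of pluripotent states went both ways. All 11 genes of a primed epiblast list, Dnmt3b among them, were expressed, and 7 rose and 4 fell (100% called). Pou5f1 (OCT4) went from 1294 ± 44.5 to 807.1 ± 21.7 CPM and Nanog from 161.3 ± 2.58 to 53.5 ± 4.45 CPM, while Sox2 went from 51.7 ± 3.46 to 187.6 ± 6.72 CPM and Lin28a rose by 0.87 on the log2 scale. The summed level of the list, of which Pou5f1 was the largest part, was 2337 to 2453 CPM in knockout and 2109 to 2186 CPM in induced libraries. Of 10 tested genes of naive pluripotency, 4 rose and 3 fell (70.0% called). Esrrb went from 7.44 ± 1.09 to 81.2 ± 10.5 CPM and Klf5 rose by 0.97, while Klf2 fell by 2.05 and Nr5a2 by 2.67. The naive markers Zfp42 and Dppa3 were at or near 0 in all libraries. The summed level of the naive list was 111.6 to 125.4 CPM in knockout against 228.5 to 246.8 CPM in induced libraries. Its largest parts in induced cells were Klf5, at 51.4 CPM in knockout against 100.9 CPM in induced cells, and Esrrb.

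Genes listed as markers of other cells that such cultures can hold moved in the same contrast. Whether those cells were present was not tested. All 10 macrophage markers fell (100% called), and Tyrobp fell by 3.01. Their summed levels were 323 to 464 CPM in knockout and 48.2 to 59.4 CPM in induced libraries. Most of that sum was Lyz2, named for this reason, at 311.2 ± 54.9 CPM in knockout and 34.7 ± 3.65 CPM in induced cells (SD, n = 3). Of 11 fibroblast markers, which the feeder layer would carry, 7 fell and 3 rose (90.9% called). Their summed levels were 830 to 1035 against 494 to 685 CPM. Pdgfrb fell by 2.27 and Dcn by 2.64, while Col1a2 rose by 1.09. No marker of either list was at 0 in all libraries. Of 7 tested trophoblast markers 3 rose and 3 fell (85.7% called), with summed levels of 408 to 479 against 195 to 203 CPM. The lower sum came mostly from Cdx2, at 180.3 against 13.2 CPM, and from Tfap2c, at 145.4 against 39.5 CPM. Gata3 went the other way, from 2.87 to 40.7 CPM, and the defining gene Elf5 was near 0. Tfap2c counts again in the germ cell list below. Of 7 tested germ cell markers 0 rose and 6 fell (85.7% called), with summed levels of 453 to 507 against 228 to 239 CPM. Dazl, Ddx4 and Dppa3 were near 0. The part of any such cells in the lower Dnmt3a and Dnmt3b and the higher Zfp57 and Tet3 of induced cells was not tested. In bulk RNA, fewer cells of a type and less RNA per cell cannot be told apart.

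The authors' deposited table gives a log2 fold change of 1.35 for Zfp57, 0.73 for Tet3, -0.54 for Dnmt3a, -0.52 for Dnmt3b and 0.12 for Dnmt1. Under an adjusted p of 0.05 in the authors' deposited table stand the same 5 of the 10 genes, and its values for the 9 tested genes differ from those above by at most 0.00929.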

How the data were processed

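Poly(A) RNA-seq libraries of 3 Mixl1 KO and 3 Mixl1 induced embryoid body samples were grouped by their titles. The authors deposited raw read counts per gene for each library, in the layout of STAR output, and a comparison table. The submitters' processing notes name bcl2fastq, STAR, DESeq2 and the mm10 build, with versions and annotation not given in the sources used here. Per the file headers, the deposited table holds a normalised mean signal, a log2 fold change with its error, a test score, raw and adjusted p-values and a −log10 of the adjusted p. The count column antisense to the first read was used, as it held 96.2% to 96.3% of stranded reads. Rows naming no gene took 15.1% to 17.6% of reads, and multimapped reads (7.43% to 7.66% in knockout and 6.79% to 6.97% in induced libraries) are not counted on genes.

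Names and positions came from GENCODE M21 (GRCm38), which matched 55230 of 55471 identifiers; the rest held 0.0011% of gene reads. Counts were tested with edgeR 4.0.16 (R 4.3.3; filterByExpr, TMM, robust quasi-likelihood fit, two-sided, Benjamini-Hochberg adjustment over 15091 genes, threshold 0.05), after tests on simulated data. The median SE of a log2 fold change was 0.084. Levels per kilobase divide CPM by the union of annotated exons. Shares were compared by exact permutation tests (scipy 1.17.1). Alternatives were DESeq2 1.42.0 size factors and test, upper-quartile factors, limma-voom (limma 3.58.1), no filter, a filter of 1 CPM in 3 libraries, unstranded counts, a replicate block, leaving out each library, and an adjusted p of 0.01. Named genes were all 10 members, Mixl1, and from each list up to 4 genes past the threshold with the smallest p, plus the largest change against the list's majority; other names are marked or are neighbours. Some genes that meet this rule are not reported here. Members and lists were chosen with earlier results of these data known. Sequences came from the RefSeq promoter table (GRCm38.p6).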

Additional observations from a re-analysis of the deposited data

How the results depend on the processing

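No member changed direction in the 14 alternatives that gave it a log2 fold change. Zfp57 ranged from 1.28 to 1.43, Tet3 from 0.70 to 0.75, Dnmt3a from -0.58 to -0.51, Dnmt3b from -0.58 to -0.49, Dnmt1 from 0.10 to 0.14, Uhrf1 from 0.03 to 0.12, Tet1 from 0.02 to 0.11, Tet2 from 0.07 to 0.38 and Trim28 from -0.12 to -0.07. Leaving out each library in turn, 4 to 6 members and 8863 to 9225 of all genes passed. The members called numbered 6, with Trim28 added, under upper-quartile factors, the 1 CPM filter, limma-voom and the replicate block, and 4, without Dnmt1, at an adjusted p of 0.01. Over the same omissions the differences in share in percentage points ran from -10.5 to -8.37 (Tet1), 9.57 to 10.8 (Tet3), -1.20 to 0.290 (Tet2), -0.582 to 0.348 (Dnmt3a), -0.371 to 0.560 (Dnmt3b) and -0.0215 to 0.106 (Dnmt3l), so the last 4 have no fixed sign, and the Dnmt1 to Uhrf1 ratio by 0.00564 to 0.0230. Whether replicate numbers pair the samples could not be settled with 3 libraries a group. Same-numbered libraries had correlations of 0.022 to 0.156 between their deviations from the group means, over 0.1 in 2 of 3 pairs. Between libraries of different number the correlations ran from -0.285 to 0.179. With the replicate number as a block, 9647 genes passed. Among the other imprint factors, 1 gene passed in place of 2 in 4 alternatives, with Arid4b lost.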
